A study of Homo sapiens with 12 samples.

Results

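Transcriptional corepressors are proteins that DNA-binding factors recruit to lower the activity of a gene. Of this kind, 8 genes were followed, chosen by name: NCOR1, HDAC3, TBL1X, TBL1XR1 and GPS2 of the nuclear receptor corepressor (NCOR) complex, SIN3A of the SIN3 complex, and the C-terminal binding proteins CTBP1 and CTBP2. These 8 were read out of the 23459 gene rows of 1 table of raw read counts, and all 8 passed the filter on low counts that left 14775 genes for testing. The RNA came from MCF10A cells, a non-tumorigenic line of human breast epithelium. Every one of the 12 libraries was from cells carrying a YAP5SA transgene under doxycycline control (iYAP5SA), YAP5SA being a mutant of the coactivator YAP that escapes inhibition by the Hippo kinases. In the vector EtOH group (3 libraries) these cells had an empty vector and received ethanol, the solvent of doxycycline. The vector Dox group (3 libraries) had the empty vector and received 100 ng/ml doxycycline. The JUN EtOH group (3 libraries) had a JUN overexpression vector and ethanol, and the JUN Dox group (3 libraries) had the JUN vector and 100 ng/ml doxycycline. The JUN vector drove JUN in the whole infected population of a cultured line, so the data describe that line only. The study used the design to ask how JUN acts on the transcription of YAP target genes.

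NCOR1 is the large scaffold of a complex in which HDAC3, a histone deacetylase, is switched on by binding to the scaffold. TBL1X and TBL1XR1 are paralogous WD-repeat subunits that help the complex to be exchanged or retained at promoters, and GPS2 is a small subunit that binds both. SIN3A is a scaffold without enzymatic or DNA-binding activity of its own that brings the deacetylases HDAC1 and HDAC2 to MAD-family and other factors. CTBP1 and CTBP2 are paralogous NAD(H)-binding proteins that link repressors carrying a short PXDLS-type motif, such as ZEB1 and ZEB2, to histone-modifying enzymes. Unliganded nuclear receptors and BCL6 are classical partners of the NCOR complex. All of these complexes are present in most tissues, epithelium included.

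Total counts ranged from 18594867 to 28993487 per library. In CPM (counts scaled to library size with TMM factors), JUN went from 47.6 ± 10.5 with ethanol to 189.7 ± 4.2 with doxycycline in vector cells, and was at 1279 ± 187 and 1248 ± 92 in JUN cells (SD, n = 3). The YAP target CCN1 rose from 68.5 ± 11.3 to 1895 ± 89 CPM with doxycycline in vector cells and from 61.5 ± 2.7 to 1072 ± 4.4 CPM in JUN cells (SD, n = 3). YAP1, the gene from which YAP5SA derives, was not called upon induction, at 179.4 ± 10.6 and 236.5 ± 31.5 CPM in vector cells (log2 fold change 0.40, edgeR adjusted p 0.0819) and 234.4 ± 20.9 and 279.9 ± 79.3 CPM in JUN cells (0.26, edgeR adjusted p 0.308). All 10 basal epithelial markers, KRT5 and TP63 among them, exceeded 1 CPM in every library, and their summed level was 5300 to 6746 CPM in vector Dox against 9769 to 10520 CPM in vector EtOH. Of markers of other cells, 3 of 7 fibroblast, 2 of 5 immune and 3 of 5 luminal markers, but 0 of 4 endothelial and 0 of 2 adipocyte markers, exceeded 1 CPM in every library. PDGFRA made up most of the fibroblast sum (87.9 to 155.9 CPM of 111 to 161.6), while COL1A2 and COL3A1 had 3 or fewer counts in each library. CD68 (17.0 to 93.4 CPM) and CD14 (1.46 to 30.9 CPM) were the immune markers detected throughout, and PTPRC and CD3E, like the endothelial CDH5 and the adipocyte ADIPOQ, had 3 or fewer counts in each library. The immune sum differed between groups, at 54.2 to 59.0 CPM in vector EtOH, 22.9 to 24.3 in vector Dox, 87.3 to 102.5 in JUN EtOH and 52.2 to 72.4 in JUN Dox. The luminal sum, mostly KRT8 and KRT18, was 1266 to 1517 CPM in vector libraries and 495.9 to 914.5 CPM in JUN libraries. The hormone receptor genes of that list were not part of this signal. ESR1 was at 0.25 to 0.71 CPM, and PGR had 3 or fewer counts in each library. The part of these marker levels in the results was not tested. In bulk RNA of this kind, fewer cells of a type and less RNA per cell cannot be told apart.

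The 8 genes lie on 7 chromosomes, and 7 of the 8, all but TBL1X, share exonic sequence with another annotated gene, which matters because no use of strand is stated for the counting. On GRCh37 (the assembly also called hg19), NCOR1 (Entrez 9611) spans chr17:15932379-16121499 on the minus strand, HDAC3 (8841) chr5:141000443-141016416 minus, TBL1X (6907) chrX:9431360-9709077 plus, TBL1XR1 (79718) chr3:176737128-176945788 minus, GPS2 (2874) chr17:7214643-7218883 minus, SIN3A (25942) chr15:75661720-75748183 minus, CTBP1 (1487) chr4:1205233-1244121 minus and CTBP2 (1488) chr10:126672886-126849739 minus. CTBP2 shares 3416 bases, 30.8% of its exonic length, with ZRANB1 on the opposite strand. ZRANB1, a deubiquitinase gene, had a mean of 1248 counts per library against 2660 for CTBP2, so counts of CTBP2 are uncertain. GPS2 shares 44.7% of its exonic length with a readthrough transcript that has no row of its own in the table, and 241 bases with EIF5A, a translation factor gene on the opposite strand with a mean of 22660 counts per library against 662 for GPS2. CTBP1 shares 701 bases with CTBP1-DT, and NCOR1 shares 340 bases with TTC19 and 321 with PIGL. TBL1X and TBL1XR1 are similar in coding sequence, and NCOR1, CTBP2 and TBL1XR1 have pseudogene copies in the genome, so reads may have been split between copies and these levels are uncertain to that extent.

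Because JUN binds DNA in AP-1 dimers and YAP acts through TEAD factors, the windows around the annotated starts of the 8 genes are shown where they hold an element of either kind. RefSeq promoter windows (GRCh38.p14, 250 bases before to 50 bases after a start) were matched for 8 of 8 genes and numbered 18, since several genes have more than 1 start. The AP-1 element TGACTCA, searched on both strands, was found in 1 of the 18 windows and in 4.95% of all 35116 RefSeq windows. The TEAD element GGAATG, also searched on both strands, was found in 2 of the 18 and in 14.0% of all windows. The cyclic AMP response element TGACGTCA was in none of the 18 and in 1.85% of all windows. The matches are printed 5′ to 3′ along the strand of the gene, with the element in capitals.
NCOR1, chr17:16215518-16215547, minus strand, AP-1 element starting 1 base before the start: agggagaggggtTGAGTCAagatggcggcc
TBL1XR1, chr3:177197512-177197540, minus strand, TEAD element starting 46 bases before the start: ctggctggtcccCATTCCtctctccccag
CTBP1, chr4:1250118-1250146, minus strand, TEAD element starting 144 bases before the second annotated start: aggagtctgcatCATTCCgtctccatgcc
CTBP1, chr4:1250071-1250099, minus strand, TEAD element starting 97 bases before the same start: caactatctcggCATTCCagagggctcag
HDAC3, TBL1X, GPS2, SIN3A and CTBP2 had no match of these letters in their windows. A match is a description of the sequence and not of binding, which was not measured in these libraries.

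Compared per kilobase of exon (RPKM, CPM divided by the exonic length in kilobases), 7 of the 8 genes were expressed within a narrow range and TBL1X was far lower. The length was that of all annotated exons of a gene merged, from 3089 bases for GPS2 to 15620 for NCOR1. The annotation used for counting is not given, so the order of genes at near levels also depends on these lengths and is uncertain. CTBP1 was the most abundant in all 4 groups, with 15.7 ± 0.3 RPKM in ethanol and 16.5 ± 0.7 in doxycycline for vector cells, against 14.1 ± 0.5 and 15.3 ± 0.9 for JUN cells (SD, n = 3), and its libraries did not overlap those of the next gene in any group. HDAC3, CTBP2 and GPS2 followed at group means of 8.43 to 11.5 RPKM. HDAC3 and CTBP2 had overlapping ranges wherever they were neighbours in the order, which was in vector Dox, JUN EtOH and JUN Dox. NCOR1, TBL1XR1 and SIN3A formed the next tier, at 4.36 to 8.11 RPKM. NCOR1 led this tier in vector EtOH, JUN EtOH and JUN Dox, while in vector Dox TBL1XR1 stood next to it with overlapping ranges. Other neighbours in the order with overlapping libraries were HDAC3 and GPS2, GPS2 and CTBP2, and SIN3A and TBL1XR1 in vector EtOH, NCOR1 and SIN3A in vector Dox, and HDAC3 and GPS2, GPS2 and NCOR1, and TBL1XR1 and SIN3A in JUN Dox. In JUN EtOH each gene from HDAC3 down to SIN3A overlapped the next, so their order there is not resolved. TBL1X was lowest in every group, at 0.25 to 0.39 RPKM, with libraries clear of those of the next gene. Among the 14515 tested genes with an exon length, mean RPKM over the 12 libraries put CTBP1 at the 78.2 percentile, HDAC3 at 70.1, CTBP2 at 69.4, GPS2 at 66.8, NCOR1 at 60.5, TBL1XR1 at 57.0, SIN3A at 53.4 and TBL1X at 10.5.

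**Figure D1:**
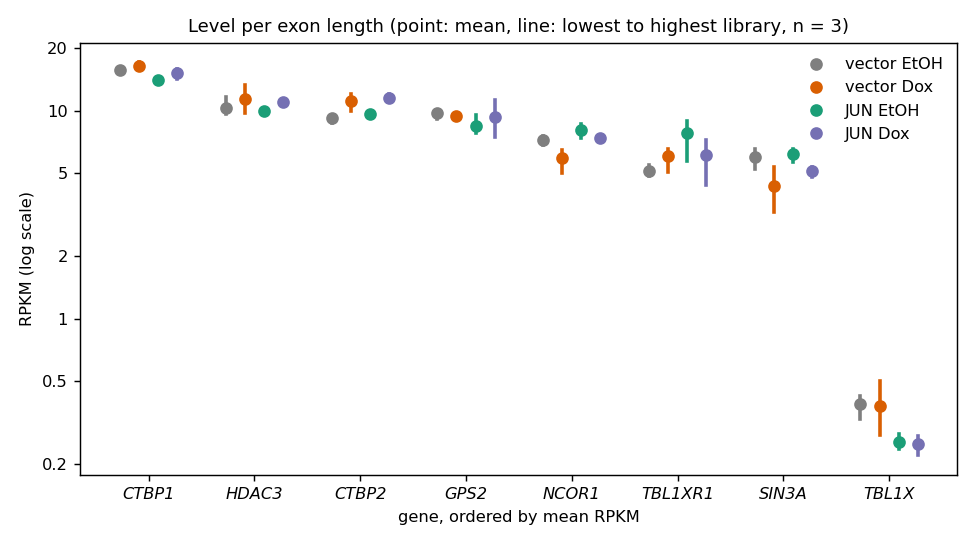
Level per exon length of the 8 corepressor genes in RPKM on a log axis, with the group mean as a point and a line from the lowest to the highest of the 3 libraries of each group. CTBP1 leads in every group, and TBL1X lies at 0.25 to 0.39 RPKM in the 4 groups.

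Between 0 and 2 of the 8 genes were called in each comparison, where 1 gene is 12.5% of the members. edgeR's quasi-likelihood test was fitted across the 14775 genes in all 12 libraries, and a gene was called at a Benjamini-Hochberg adjusted p under 0.05. Upon YAP5SA induction in vector cells, 2 of the 8 were called, CTBP2 higher and SIN3A lower, against 30.1% of all tested genes (15.6% higher and 14.4% lower). In ethanol, comparing JUN with vector cells, 2 of the 8 were called, TBL1XR1 higher and TBL1X lower, against 39.0% of all genes (20.1% higher, 18.9% lower). Upon YAP5SA induction in JUN cells, 0 of the 8 were called by edgeR at the adjusted threshold, against 21.4% of all genes (11.2% higher, 10.3% lower). In that comparison 1 gene, CTBP2, had an unadjusted p under 0.05, and DESeq2 called 1, also CTBP2. Under induction, comparing JUN with vector cells, 2 of the 8 were called, NCOR1 higher and TBL1X lower, against 35.6% of all genes (18.4% higher, 17.2% lower). In the interaction, which compares the log2 induction in JUN cells with that in vector cells, 0 of the 8 were called by edgeR, against 1.12% of all genes (0.291% higher, 0.826% lower). There 1 gene, TBL1XR1, had an unadjusted p under 0.05, and DESeq2 called none of the 8.

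The median absolute log2 fold change of the 8 genes was 0.19 upon YAP5SA induction in vector cells against 0.26 over all tested genes, 0.16 against 0.32 with the JUN vector in ethanol, 0.14 against 0.22 upon induction in JUN cells and 0.08 against 0.31 with the JUN vector under induction. No member changed by as much as 1 on the log2 scale in any comparison, with a range of -0.60 to 0.61. All 6 pairwise calls had adjusted p-values of 0.0179 to 0.0377, and each was lost when some single library was left out, as given below for each gene. The 4 pairwise comparisons share groups, so a value in 1 group enters 2 of them.

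**Figure D2:**
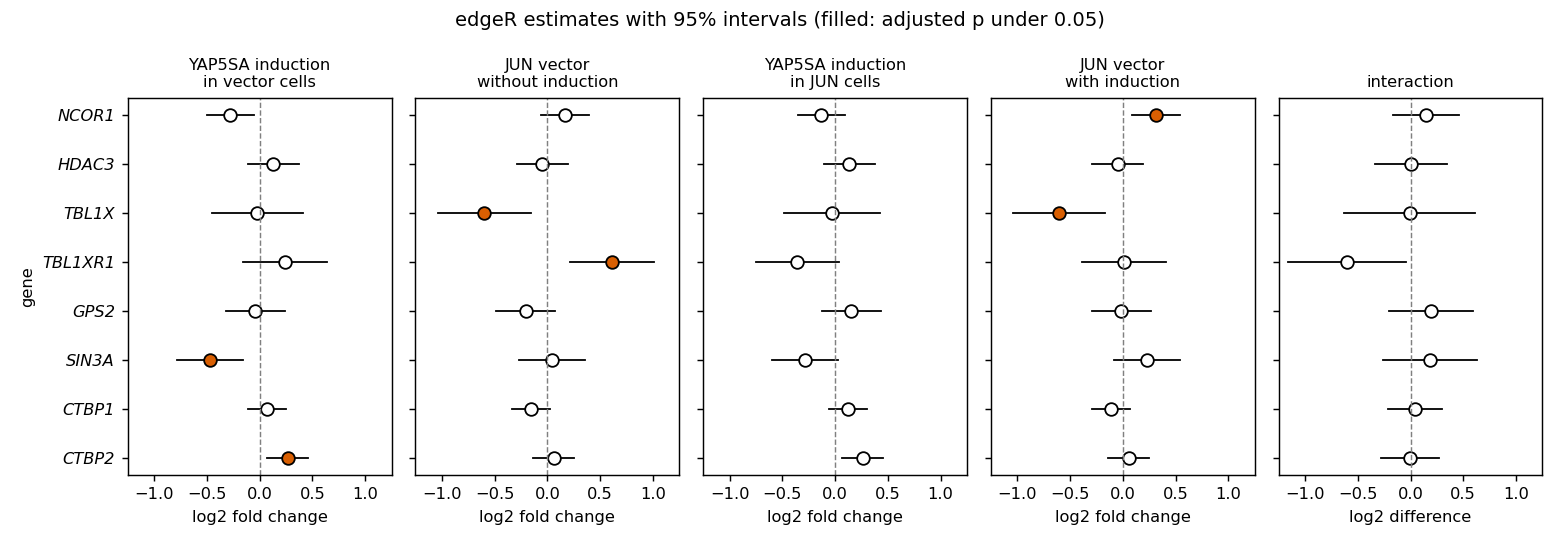
Estimated log2 fold change of each gene with its 95% interval in the 4 pairwise comparisons, and the log2 difference in the interaction, from the edgeR model of 12 libraries. Filled points mark an adjusted p under 0.05, which are SIN3A and CTBP2, TBL1X and TBL1XR1, and NCOR1 and TBL1X in the respective panels.

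NCOR1, the scaffold of the NCOR complex, was lowest in induced vector cells. It had 113.6, 106.5 and 118.5 CPM in vector EtOH (mean 112.9 ± 6.0, SD, n = 3) and 78.7, 99.1 and 101.2 CPM in vector Dox (93.0 ± 12.5). In JUN cells it had 128.7, 115.9 and 135.5 CPM with ethanol (126.7 ± 10.0) and 113.6, 114.4 and 118.9 CPM with doxycycline (115.6 ± 2.8). Each vector Dox library lay below each vector EtOH and each JUN library, and JUN EtOH overlapped both vector EtOH and JUN Dox. Under induction the JUN vector raised NCOR1 by 0.31 (log2, SE 0.11), a 1.24-fold difference with an edgeR adjusted p of 0.031. Upon YAP5SA induction in vector cells the log2 fold change was -0.28 (SE 0.11) with an edgeR adjusted p of 0.0574, so it was not called, although 3 of 3 libraries were lower. This value lay at the threshold, since NCOR1 was called lower there by DESeq2 (-0.29, adjusted p 0.0385), with upper-quartile factors (adjusted p 0.0238), with a minimum mean of 5 CPM (adjusted p 0.0322) and with the replicate number as a block (adjusted p 0.0472). The log2 fold change on induction in JUN cells was -0.13 (95% interval -0.36 to 0.09), and the interaction of 0.15 (-0.17 to 0.46) was not called. Both NCOR1 differences leaned on vector Dox replicate 1, at 78.7 CPM. Without it the JUN effect under induction was 0.22 (adjusted p 0.0915) and the induction effect in vector cells was -0.18 (adjusted p 0.154). The JUN effect under induction was also not called without JUN Dox replicate 2 (0.32, adjusted p 0.0688) or JUN Dox replicate 3 (0.29, adjusted p 0.0667). Vector Dox replicate 1 stood apart from replicates 2 and 3 in genes named below as well. In it CHD3 was lower (98.8 against 147.2 and 160 CPM), as was NCOA3 (41.6 against 77.3 and 63.3 CPM). MXD3 was higher in it (200.1 against 116.1 and 131.4 CPM), and the cause was not tested. TTC19 and PIGL, which share short stretches with NCOR1, fell or gave negative values where the JUN vector was compared (TTC19 -0.26, adjusted p 0.0418, and PIGL -0.29, adjusted p 0.196, under induction), opposite to NCOR1.

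HDAC3, the catalytic deacetylase of the complex, did not pass the test in any comparison. Its mean was 47.9 ± 4.9 CPM for vector EtOH and 52.3 ± 8.2 for vector Dox, and 46.2 ± 1.3 for JUN EtOH and 50.6 ± 1.3 for JUN Dox (SD, n = 3). Both doxycycline groups had the higher mean, and in JUN cells the 3 induced libraries (49.9 to 52.1 CPM) lay above the 3 uninduced ones (45.1 to 47.6 CPM). The log2 fold change upon induction was 0.13 in vector cells (95% interval -0.11 to 0.37) and 0.13 in JUN cells (-0.11 to 0.37), with adjusted p-values of 0.424 and 0.459. For the JUN vector it was -0.05 without induction (-0.29 to 0.19) and -0.05 with it (-0.29 to 0.19). The highest HDAC3 library, 61.2 CPM, was vector Dox replicate 1, the library in which NCOR1 and SIN3A were lowest.

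TBL1X, an X-linked subunit, was the member with the fewest reads and was lower in JUN cells. It had 5.63, 4.54 and 5.92 CPM in vector EtOH (mean 5.36 ± 0.73, SD, n = 3), from 91 to 148 counts per library, and 3.84, 5.09 and 6.94 CPM in vector Dox (5.29 ± 1.56). In JUN EtOH it had 3.87, 3.50 and 3.29 CPM (3.55 ± 0.30) and in JUN Dox 3.06, 3.59 and 3.77 CPM (3.47 ± 0.37), from 61 to 106 counts per library. All JUN libraries lay below all vector libraries of the same treatment. The JUN vector lowered TBL1X by a log2 fold change of -0.60 (SE 0.21, edgeR adjusted p 0.0332) without induction and -0.60 (SE 0.21, edgeR adjusted p 0.0337) with it. YAP5SA induction left no detectable difference, with -0.02 in vector cells (95% interval -0.45 to 0.41) and -0.03 in JUN cells (-0.48 to 0.42). Without induction the call held in 7 of 12 fits that left out 1 library, with estimates of -0.70 to -0.52. It was lost without vector EtOH replicate 1 or 3 or any JUN EtOH replicate, at adjusted p-values of 0.0592 to 0.111. Under induction it held in 8 of 12 such fits (-0.78 to -0.36). There it was lost without JUN Dox replicate 1 or 2 or vector Dox replicate 2, and without vector Dox replicate 3, the highest library, the value was -0.36 (adjusted p 0.192).

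TBL1XR1, the paralogue of TBL1X and the far more abundant of the pair, went the other way in uninduced cells. It had 58.9, 64.1 and 57.0 CPM in vector EtOH (mean 60.0 ± 3.7, SD, n = 3) and 77.0, 76.2 and 59.6 CPM in vector Dox (70.9 ± 9.8). In JUN EtOH it had 102.3, 105.0 and 67.2 CPM (91.5 ± 21.1) and in JUN Dox 84.4, 78.6 and 51.5 CPM (71.5 ± 17.6). Replicate 3 was the lowest library of each of the 4 groups, by the widest gap in both JUN groups. Without induction the JUN vector raised TBL1XR1 by 0.61 (log2, SE 0.19), a 1.53-fold difference with an edgeR adjusted p of 0.0179, and 3 of 3 JUN libraries were above the vector libraries. Under induction the JUN effect was 0.01 (95% interval -0.38 to 0.40). The induction effect was 0.24 in vector cells (-0.15 to 0.64) and -0.36 in JUN cells (-0.75 to 0.04, adjusted p 0.195). The interaction was -0.60 (SE 0.26) with an unadjusted p of 0.0368 and an adjusted p of 0.487, so a difference between the JUN effects with and without induction was not called. The call without induction was lost without JUN EtOH replicate 1 (0.52, adjusted p 0.0786), JUN EtOH replicate 2 (0.50, adjusted p 0.0813) or vector EtOH replicate 3 (0.58, adjusted p 0.0595).

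GPS2, which bridges the scaffold and the TBL1 subunits, was not called in any comparison. It had 28.2, 30.7 and 31.3 CPM in vector EtOH (mean 30.1 ± 1.6, SD, n = 3) and 28.9, 28.8 and 29.9 CPM in vector Dox (29.2 ± 0.6). In JUN EtOH it had 24.1, 24.6 and 29.4 CPM (26.0 ± 2.9) and in JUN Dox 23.0, 28.9 and 34.7 CPM (28.9 ± 5.8). Its spread was narrow in vector cells and wide in JUN Dox, where the 3 libraries enclosed the values of all other groups. The JUN vector gave -0.21 without induction (95% interval -0.49 to 0.07) and -0.01 with it (-0.29 to 0.27), and induction gave -0.04 in vector cells (-0.32 to 0.24) and 0.15 in JUN cells (-0.13 to 0.43). Adjusted p-values of GPS2 in these comparisons were 0.227 to 0.947.

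Libraries of the JUN groups differed in base composition, and in replicates 1 and 3 the values of TBL1XR1 and GPS2 differed along with it. For each library the deviation of every gene from its group mean was correlated, across genes, with the GC content of the gene's exons. Genes are not independent replicates, and these correlations describe libraries only. The correlation was -0.36 in JUN Dox replicate 1 and -0.20 in JUN EtOH replicate 1, but 0.36 in JUN Dox replicate 3 and 0.22 in JUN EtOH replicate 3. In the other 8 libraries it lay between -0.09 and 0.08. TBL1XR1 has the lowest exonic GC content of the 8 genes (37.4%), and its deviation from the group mean was 0.27 on the log2 scale in JUN Dox replicate 1 and -0.44 in JUN Dox replicate 3. It also deviated by 0.23 in JUN EtOH replicate 2 and 0.17 in JUN Dox replicate 2, where the correlation was only -0.05 and 0.06. GPS2 has 57.3% GC, and it deviated by -0.31 in JUN Dox replicate 1 and 0.28 in JUN Dox replicate 3. The GC trend added to the model was the slope of log2 CPM on exon GC content in each library. This slope also differed between groups, at -0.09 to -0.05 per 10% GC in vector EtOH and -0.19 to -0.18 in vector Dox. It was -0.25 to -0.16 in JUN EtOH and -0.40 to -0.19 in JUN Dox. The term thus takes up part of the group differences, and base composition and group cannot be told apart in these fits. With the term, the JUN effect on TBL1XR1 without induction went from 0.61 to 0.096 and was not called. That on TBL1X was not called either, although its value of -0.54 (adjusted p 0.25) was close to the -0.60 without the term, and members called in that comparison went from 2 to 0. In the same model TBL1XR1 fell upon induction in JUN cells (-0.63, edgeR adjusted p 0.00914), while GPS2 rose there (0.35, adjusted p 0.00784) and in vector cells (0.28, adjusted p 0.0466). The direction of the GPS2 estimate thus depends on this term, being -0.04 without it in vector cells. The part of base composition in these results was not tested further.

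**Figure D3:**
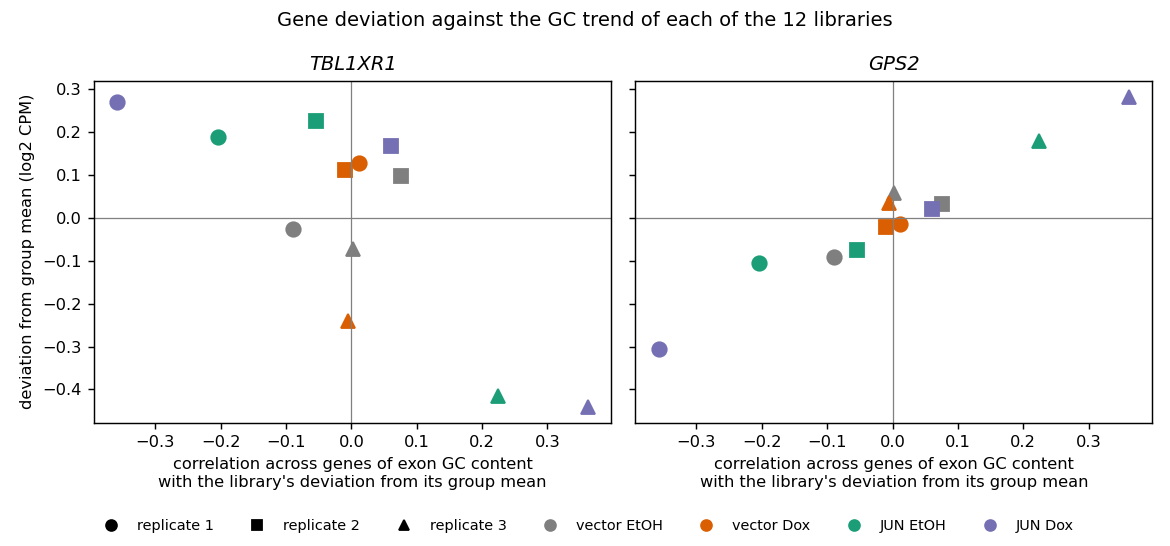
Deviation of TBL1XR1 (left) and GPS2 (right) from their group mean in log2 CPM, against the correlation, across genes, of each library's deviations with exon GC content (12 libraries), with colour for group and shape for replicate. JUN Dox replicates 1 and 3 lie at the ends of the x axis (-0.36 and 0.36), with TBL1XR1 at 0.27 and -0.44 and GPS2 at -0.31 and 0.28.

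SIN3A, the SIN3 scaffold, was lower after YAP5SA induction in vector cells, and its value was also negative in JUN cells, where it was not called. It had 84.5, 67.6 and 80.1 CPM in vector EtOH (mean 77.4 ± 8.7, SD, n = 3) and 41.8, 69.1 and 57.1 CPM in vector Dox (56.0 ± 13.7). In JUN EtOH it had 84.0, 73.2 and 82.6 CPM (79.9 ± 5.8) and in JUN Dox 62.1, 69.1 and 65.9 CPM (65.7 ± 3.5). The vector groups overlapped, since vector Dox replicate 2 exceeded vector EtOH replicate 2, while all JUN Dox libraries were below all JUN EtOH libraries. In vector cells SIN3A fell by 0.47 on the log2 scale (SE 0.15), or by 27.7%, with an edgeR adjusted p of 0.0254. In JUN cells the log2 fold change was -0.28 (95% interval -0.60 to 0.03) with an adjusted p of 0.196, and the interaction of 0.18 (-0.26 to 0.63) was not called, so a difference between the cells was not shown. The JUN vector gave 0.05 without induction (-0.26 to 0.36) and 0.23 with it (-0.08 to 0.54). Without vector Dox replicate 1, at 41.8 CPM, the fall in vector cells was -0.30 (adjusted p 0.0628). It was also not called without vector EtOH replicate 1 (-0.40, adjusted p 0.0988), vector EtOH replicate 3 (-0.45, adjusted p 0.0751) or vector Dox replicate 3 (-0.48, adjusted p 0.059), nor with a GC trend in the model, although the value then was -0.46 (adjusted p 0.0908). With only the libraries compared in the fit the calls were exchanged, since SIN3A was then called lower in JUN cells (-0.29, edgeR adjusted p 0.0417) and not called in vector cells (-0.49, edgeR adjusted p 0.0652).

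CTBP1, the more abundant of the CtBP paralogues, varied little and was not called in any comparison. Its mean was 165.7 ± 3.4 CPM for vector EtOH and 174.2 ± 7.4 for vector Dox, and 148.5 ± 4.9 for JUN EtOH and 161.2 ± 9.1 for JUN Dox (SD, n = 3). The 3 JUN EtOH libraries (144.9 to 154.0 CPM) lay below the 3 vector EtOH libraries (163.7 to 169.6 CPM), with a log2 fold change of -0.16 (95% interval -0.34 to 0.02) and an adjusted p of 0.151. The other comparisons had overlapping libraries and log2 fold changes of -0.11 with the JUN vector under induction, 0.07 upon induction in vector cells and 0.12 upon induction in JUN cells.

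CTBP2 was higher with YAP5SA induction by a like amount in vector and JUN cells. It had 105.7, 96.9 and 104.7 CPM in vector EtOH (mean 102.4 ± 4.8, SD, n = 3) and 110.9, 133.5 and 125.1 CPM in vector Dox (123.2 ± 11.5). In JUN EtOH it had 104.9, 109.2 and 106.3 CPM (106.8 ± 2.2) and in JUN Dox 127.4, 134.4 and 122.2 CPM (128.0 ± 6.1). In both kinds of cells 3 of 3 induced libraries were above the uninduced ones. The log2 fold change was 0.27 in vector cells (SE 0.09, edgeR adjusted p 0.0377), a 1.20-fold rise, and 0.26 in JUN cells (95% interval 0.07 to 0.45, edgeR adjusted p 0.0526), which was not called. The interaction was 0.00 (SE 0.13), with an interval of -0.28 to 0.27. The JUN vector gave 0.06 without induction and 0.06 with it, neither of them called. The call in vector cells held in 3 of 12 fits that left out 1 library, with values of 0.20 to 0.33 and adjusted p-values of 0.00966 to 0.151. ZRANB1, whose exons overlap CTBP2 on the other strand, rose upon induction by 0.79 in vector cells (adjusted p 7.72e-05) and by 0.37 in JUN cells (adjusted p 0.0264). Its part in the counts of CTBP2 was not tested.

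**Figure D4:**
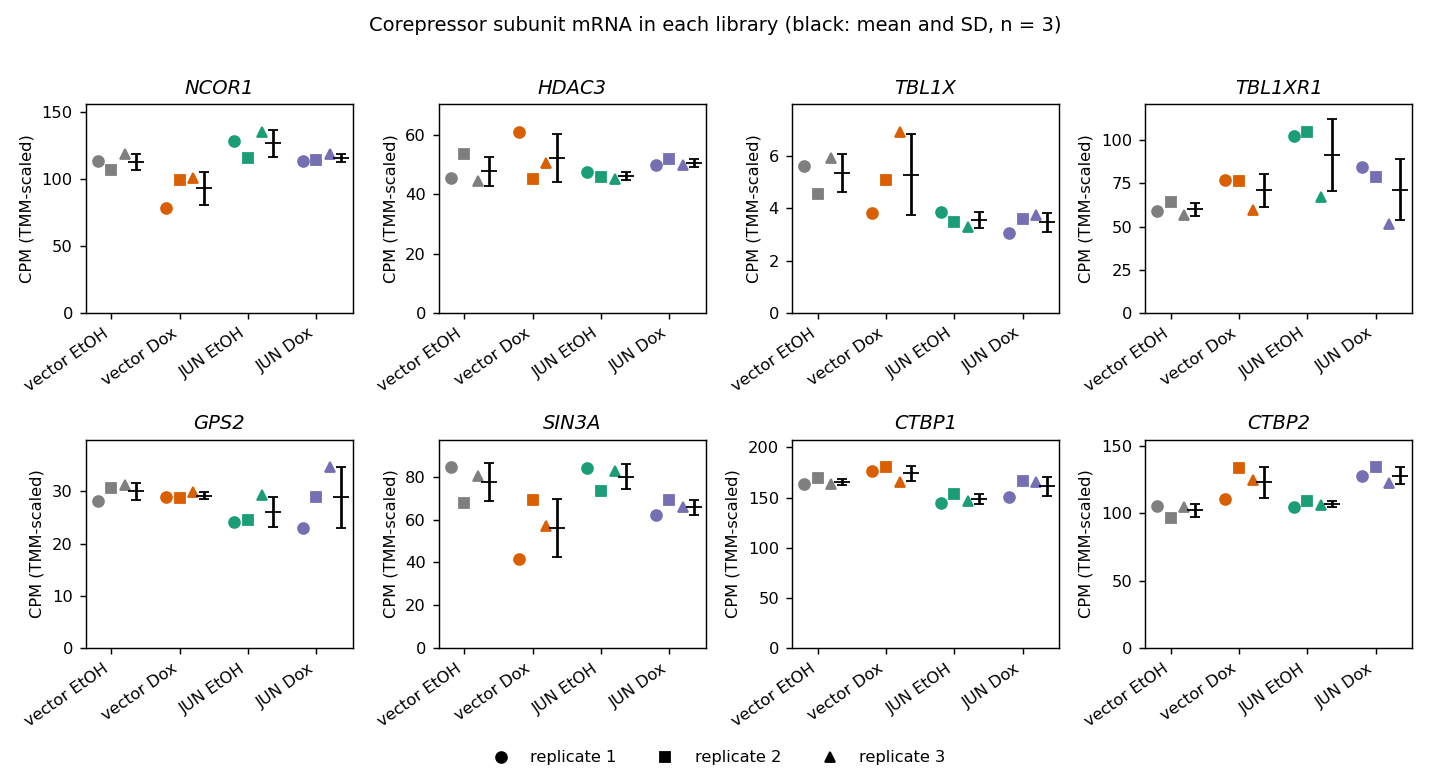
TMM-scaled CPM of the 8 genes in each of the 12 libraries, with 1 panel a gene on its own axis from 0, symbols for the replicates and black bars for the mean and SD of each group (n = 3). TBL1X is lower in both JUN groups (3.06 to 3.87 CPM) and CTBP2 higher in both doxycycline groups, while replicate 3 of TBL1XR1 sits lowest in all 4 groups.

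The balance within the paralogue pairs was described per library from RPKM, without a test. CTBP1 exceeded CTBP2 in all 12 libraries, by a mean log2 ratio of 0.77 ± 0.10 for vector EtOH and 0.58 ± 0.14 for vector Dox, and of 0.55 ± 0.02 for JUN EtOH and 0.41 ± 0.10 for JUN Dox (SD, n = 3). Expressed as a fold, this was 1.71 in vector cells with ethanol and 1.32 in induced JUN cells. The part in this ratio of ZRANB1, whose exons overlap those of CTBP2, was not tested. TBL1X was at a log2 ratio to TBL1XR1 of -3.73 ± 0.29 for vector EtOH and -4.02 ± 0.62 for vector Dox, and of -4.91 ± 0.28 for JUN EtOH and -4.58 ± 0.52 for JUN Dox. The JUN EtOH libraries (-5.15 to -4.60) lay below the vector EtOH libraries (-4.06 to -3.51), as the opposite calls of both genes in that comparison would give.

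Over the 12 libraries the members did not vary as 1 block. Pearson correlations of log2 CPM, given as a description over libraries that share groups and base composition, ranged from -0.86 to 0.87 between members. NCOR1 and SIN3A varied together (0.87), while HDAC3 ran against SIN3A (-0.86) and NCOR1 (-0.71). Vector Dox replicate 1, with the lowest NCOR1 and SIN3A and the highest HDAC3 of the 12 libraries, enters these values. TBL1XR1 ran against GPS2 (-0.85), and NCOR1 against CTBP1 (-0.76). CTBP2 followed no other member closely, with correlations of -0.31 to 0.30. Among the 11364 tested genes that averaged 5 CPM or more, the closest pattern to NCOR1 was that of RNF213 (0.98), followed by CTNND1 (0.97) and TMLHE-AS1 (0.97). SIN3A was closest to LRBA (0.98) and RAI1 (0.96), and HDAC3 to MYDGF (0.94), UBE2E3 (0.93) and DONSON (0.93). GPS2 was closest to CHMP1A (0.99) and GPS1 (0.95), and TBL1XR1 to SPDYA (0.94), PPP1CB (0.94) and TBX19 (0.93). TBL1X was closest to UBE2O (0.92), MAP7 (0.92) and PIGO (0.89), CTBP1 to MPV17L2 (0.94), SHBG (0.93) and NUDT19 (0.93), and CTBP2 to FIGN (0.96), RNF43 (0.95) and HDGFL3 (0.95).

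Genes of the partners with which these corepressors act changed by up to 3.97 on the log2 scale. Among 30 tested partners of the NCOR complex, which are nuclear receptors, BCL6 and class IIa deacetylases for the most part, 14 were called upon YAP5SA induction in vector cells (5 higher, 9 lower, 46.7% against the 30.1% of all genes) and 15 in JUN cells (6 higher, 9 lower, 50% against 21.4%). BCL6, a repressor that docks the NCOR complex directly, went from 20.9 ± 2.1 to 6.37 ± 0.74 CPM in vector cells (log2 fold change -1.71, SE 0.13, adjusted p 2.25e-07) and from 24.3 ± 3.1 to 9.26 ± 0.57 CPM in JUN cells (-1.39, SE 0.13). The thyroid hormone receptor gene THRA fell in both (-1.49 and -0.75), as did NR1D1 (-1.24 and -0.72), which encodes the heme receptor REV-ERB alpha, and the retinoic acid receptor gene RARG (-0.99 and -0.91).

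The NCOR partners that rose included HDAC9, PPARD and NR2F2. HDAC9, a class IIa deacetylase that binds the complex, went with doxycycline from 1.57 ± 0.56 to 4.74 ± 0.52 CPM in vector cells and from 8.50 ± 1.17 to 17.8 ± 2.9 CPM in JUN cells (SD, n = 3). It rose upon induction by 1.57 in vector cells and 1.06 in JUN cells, and with the JUN vector by 2.41 without and 1.90 with induction, with edgeR adjusted p-values of 1.25e-06 to 0.000809. PPARD, a fatty acid receptor gene, rose in the same 4 comparisons by 0.61 to 1.28. NR2F2, an orphan receptor gene, rose upon induction by 0.44 and 1.01 in vector and JUN cells. With the JUN vector 11 of the 30 partners were called without induction (6 higher, 5 lower, 36.7%) and 12 with it (8 higher, 4 lower, 40.0%), near the 39.0% and 35.6% of all genes.

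Among 22 tested genes of the SIN3 complex and its MAD-family recruiters, 8 were called upon induction in vector cells (3 higher, 5 lower) and 8 in JUN cells (1 higher, 7 lower), 36.4% in each against 30.1% and 21.4% of all genes. Of 5 MAD-family recruiters, which bind DNA with MAX in place of MYC, MXD4, MNT and MXI1 fell in both, MXD1 fell in JUN cells (-0.55, adjusted p 0.0354) and gave -0.15 in vector cells without being called, and MXD3 was called in neither (0.09 and 0.10). MXD4 went from 71.6 ± 4.2 to 23.9 ± 1.7 CPM in vector cells (-1.59, SE 0.10, adjusted p 3.42e-08) and from 79.6 ± 4.7 to 40.7 ± 3.8 CPM in JUN cells (-0.97, SE 0.10). MNT fell by 0.86 and 0.87 and MXI1 by 0.64 and 0.63 on the log2 scale. HDAC2, a deacetylase that SIN3A carries, rose by 0.33 and 0.40. Its partner HDAC1, named here after its values were seen, fell in vector cells from 79.8 ± 2.2 to 66.6 ± 1.6 CPM (-0.26, adjusted p 0.0197), and in JUN cells was at 80.6 ± 2.5 and 70.4 ± 0.8 CPM (-0.20, adjusted p 0.0907), not called, with 3 of 3 libraries lower in both. For the JUN vector 8 of the 22 were called without induction (36.4% against 39.0% of all genes) and 9 with it (40.9% against 35.6%), and SIN3B, the paralogue of SIN3A, rose by 0.37 and 0.45.

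Among 27 tested genes of the CtBP complex and its recruiting factors, 16 were called with the JUN vector without induction (11 higher, 5 lower, 59.3% against 39.0% of all genes) and 13 with it (7 higher, 6 lower, 48.1% against 35.6%). ZEB2, a zinc finger repressor of epithelial genes that recruits CtBP, went from 1.44 ± 0.32 CPM in vector EtOH to 22.6 ± 3.9 in JUN EtOH (3.97, SE 0.22, adjusted p 8.68e-09) and from 1.91 ± 0.49 in vector Dox to 17.2 ± 2.8 in JUN Dox (3.16, SE 0.21). Its relative ZEB1 went from 8.03 ± 0.65 to 23.7 ± 0.5 CPM and from 8.22 ± 0.64 to 29.8 ± 5.4 CPM (1.57 and 1.86). KLF12 rose by 1.06 and 0.97, and GLIS2 fell by 0.67 and 0.50. Upon induction 8 of the 27 were called in vector cells (29.6%) and 6 in JUN cells (22.2%), near the 30.1% and 21.4% of all genes.

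In the interaction 4 of the 131 tested genes of all the lists were called (3.05% against 1.12% of all genes). TGIF1, a homeobox repressor that binds CtBP, rose upon induction from 32.4 ± 1.3 to 59.2 ± 2.4 CPM in vector cells and went from 55.1 ± 1.9 to 45.9 ± 1.0 CPM in JUN cells, an interaction of -1.13 (SE 0.12, adjusted p 0.000101). ZNF217, a zinc finger protein of CtBP complexes, went from 39.6 ± 2.3 to 67.3 ± 12.6 CPM in vector cells and from 62.4 ± 7.2 to 54.0 ± 4.9 CPM in JUN cells (-0.97, SE 0.19, adjusted p 0.0158). NR2F2 (0.57) and MXD4 (0.62) had positive interactions.

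Other corepressors and the opposing coactivators were counted in the same way. In the NuRD complex, a remodeller with its own deacetylases, 2 of 10 tested genes were called upon induction in vector cells and 2 with the JUN vector without induction (20% each, against 30.1% and 39.0% of all genes), and 1 upon induction in JUN cells and 1 with the JUN vector under induction (10% each, against 21.4% and 35.6%), with CHD3 lower upon induction in vector cells (-0.77, SE 0.17) and MBD3 lower with the JUN vector (-0.50 and -0.41). Of the 5 tested genes of the Groucho TLE family, where 1 gene is 20%, 3 were called upon induction in vector cells (2 higher, 1 lower). With the JUN vector without induction 3 were called (1 higher, 2 lower). These were 60% each, against 30.1% and 39.0% of all genes. Upon induction in JUN cells 1 was called (20% against 21.4%), and with the JUN vector under induction 3 (60% against 35.6%). TLE4 rose upon induction in vector cells (0.82) and was lower with the JUN vector under induction (-0.79), and TLE1 rose with the JUN vector without induction (0.62). TLE5 was lower upon induction in vector cells (-0.44). The calls with the JUN vector include TLE2, named here for its low level, with group means of 0.17 to 0.64 CPM. Of 21 SWI/SNF subunits, which belong to a remodeller that opens chromatin, 14.3% were called upon induction in vector cells and 23.8% with the JUN vector without induction. The share was 23.8% upon induction in JUN cells and 33.3% with the JUN vector under induction, against 30.1%, 39.0%, 21.4% and 35.6% of all genes. In that order, 1 was called higher and 2 lower, 3 and 2, 4 and 1, and 5 and 2. The ATPase gene SMARCA2 was lower upon induction in both kinds of cells (-0.59 and -0.38). It was higher with the JUN vector without and with induction (0.33 and 0.55). Of 16 coactivator genes of the p160 and acetyltransferase group, the shares called in the same order were 25.0%, 43.8%, 25.0% and 31.2%, against the same shares of all genes. NCOA3, an acetyltransferase-binding coactivator of nuclear receptors, fell upon induction in vector cells (-0.60, SE 0.17) and in JUN cells (-0.92, SE 0.17), and NCOA7 fell in both (-1.13 and -0.93). Upon induction 0 of this group were called higher and 4 lower in vector cells, and 2 higher and 2 lower in JUN cells. With the JUN vector 2 of this group were called higher and 5 lower without induction, and 2 higher and 3 lower under induction. KAT2B, an acetyltransferase gene, rose with the JUN vector (0.79 and 0.74), while the acetyltransferase gene KAT2A fell (-0.765 and -0.43). Over the 131 genes, 42 were called upon induction in vector cells (32.1%), 52 with the JUN vector without induction (39.7%), 40 upon induction in JUN cells (30.5%) and 50 with the JUN vector under induction (38.2%).

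**Figure D5:**
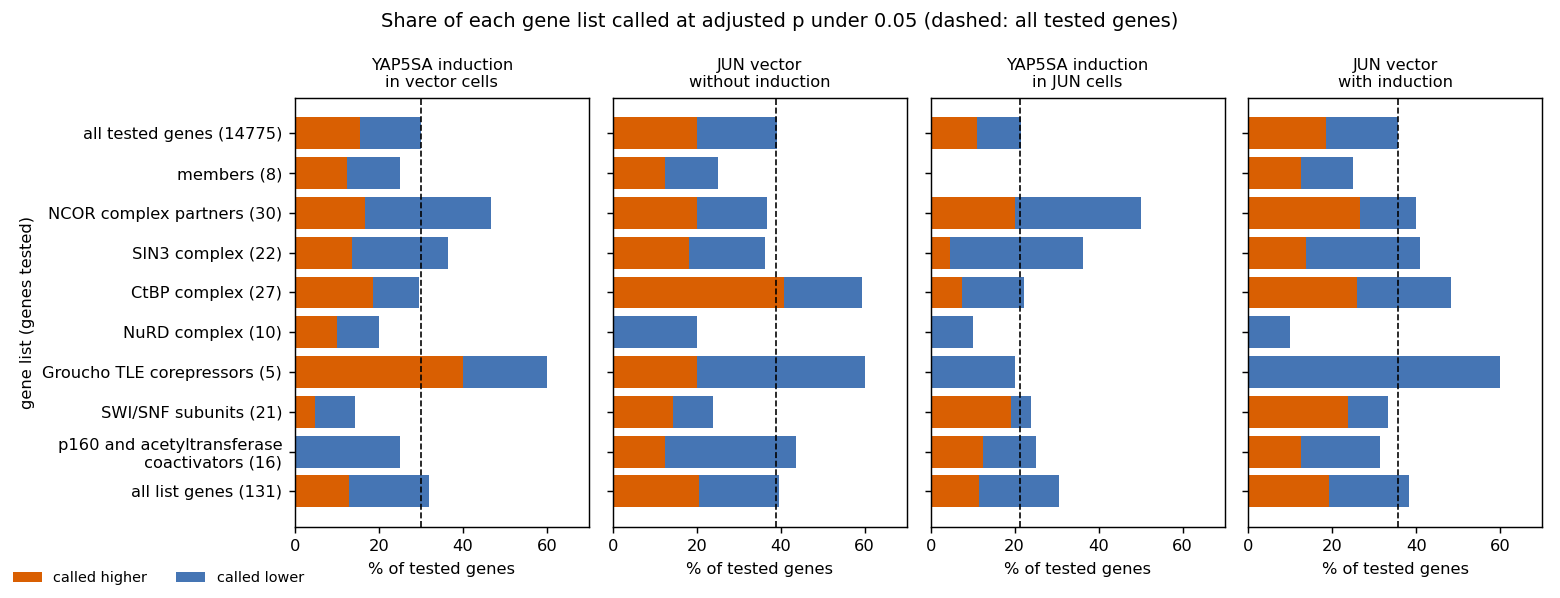
Percentage of tested genes called higher (orange) or lower (blue) at an adjusted p under 0.05 in each gene list, for the 4 pairwise comparisons, with the number tested in parentheses and a dashed line at the share of all 14775 tested genes. Of the 8 corepressor members, 2, 2, 0 and 2 were called in panel order, too few to tell their shares apart from that line. NCOR partners lie above the line upon YAP5SA induction (46.7% and 50%) and CtBP genes with the JUN vector (59.3% and 48.1%).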

How the data were processed

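The deposited table holds unnormalized read counts of 23459 genes (Entrez IDs) in 12 libraries, as the authors made it. Per the study's methods, they isolated poly(A) RNA, trimmed single reads with Cutadapt, aligned them to hg19 with Bowtie2 at default settings, and counted overlaps with genes in R. The submitters' processing notes give cutadapt 4.2 and Bowtie2 2.3.5.1. This aligner does not split reads over introns, so junction reads are largely lost in all libraries. The gene annotation and any use of strand are not given in the sources used here. According to the methods, experiments had independent biological replicates, while the labels give only replicate numbers.

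From these counts, CPM were computed with TMM-scaled library sizes, and RPKM with exon lengths of GENCODE v44lift37 on GRCh37. Genes were filtered with filterByExpr (minimum count 10, minimum total 15), and 1 quasi-likelihood model of the 4 groups was fitted to all 12 libraries with edgeR 4.0.16 under R 4.3.3 (common coefficient of variation 12.5%). Benjamini-Hochberg adjustment ran over 14775 genes. Standard errors were derived from the F statistic. The test was run on simulated counts with known changes, drawn with the same spread for every gene and without a GC trend or replicate effect. That check therefore does not cover these features of the real libraries. Counting error is small at these depths for the members other than TBL1X, and the p-values measure the spread between libraries. For TBL1X, at 61 to 168 counts per library, counting error is not small and is part of that spread. A table of RefSeq names matched 99.4% of IDs. Libraries of a group had a chi-square of at least 7.89 per degree of freedom, so none was a copy of another.

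Same-numbered libraries deviated together (r over 0.1) in 7 of 18 pairs, with a median r of 0.088 against -0.048 for different numbers. By this measure 7 of 12 libraries were closest to those of their own number, so a part shared by replicate number is possible. The methods name no pairing, so the main model had no replicate block, and the block was run as an alternative. The 8 members and the lists of 138 partner, corepressor and coactivator genes (131 tested) were chosen with earlier results of these data known, and counts over them are descriptions. Named were all 8 members, JUN and CCN1 as checks, of the called list genes that averaged 5 CPM or more the 3 highest and the 3 lowest log2 fold changes, every list gene called in the interaction, and the 3 genes closest to each member by correlation (log2 CPM, prior count 2). Overlapping genes were named for their shared exons. Some further genes covered by these rules are not reported here. Alternatives were DESeq2 1.42.0, other size factors, other filters, a replicate block, a GC trend for each library, only the libraries compared, and each library left out in turn.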

Additional observations from a re-analysis of the deposited data

Results flagged for a closer look

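Of the lists, 4 genes differed between vector and JUN cells in their response to YAP5SA, as the interaction in edgeR's quasi-likelihood model, and none of the 8 corepressor members did. TGIF1 had an interaction of -1.13 (log2, SE 0.12, adjusted p 0.000101), with induction giving 0.87 in vector cells. ZNF217 had -0.97 (SE 0.19, adjusted p 0.0158), with 0.76 in vector cells. NR2F2 had 0.57 (SE 0.12, adjusted p 0.0337), rising in 3 of 3 libraries of both kinds of cells. MXD4 had 0.62 (SE 0.14, adjusted p 0.0484), being lower in 3 of 3 libraries of both. These genes were named because they passed this test.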

How the results depend on the processing

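Over the alternatives and left-out libraries, the 6 pairwise calls of members kept their direction, but none was called in all of them. With each library left out in turn, members called ranged from 0 to 3 of 8 upon YAP5SA induction in vector cells, 0 to 2 with the JUN vector without induction, 0 to 1 upon induction in JUN cells and 0 to 2 with the JUN vector under induction. Genes called over the whole table ranged from 3823 to 6765 with the JUN vector without induction, 2082 to 3861 upon induction in JUN cells and 97 to 242 in the interaction, and list genes from 33 to 67, 22 to 45 and 1 to 5. Over the whole table they also ranged from 3326 to 4865 upon induction in vector cells and from 4025 to 5539 with the JUN vector under induction. The cause was not tested.

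With DESeq2, members called were 1 upon induction in JUN cells (3442 of 15628 genes), and the interaction gave 340 genes and 8 list genes. Members called were 1 without a filter on low counts (induction in vector cells, 4137 of 20316 genes). With a minimum mean of 5 CPM, a filter that removes TBL1X, 1 was called with the JUN vector without induction (4876 of 11404 genes). Under induction it was also 1 (4453 of 11404 genes). With only the libraries compared, members called were 0 upon induction in vector cells (3916 genes called) and 2 upon induction in JUN cells (3163 genes). With the JUN vector under induction they were 0 (3439 genes). With the replicate number as a block, members called were 3, 2, 1, 2 and 0 in the order of the comparisons. Beside them, 4588, 5871, 3256, 5329 and 197 of all 14775 genes were called. Among members the block added a call upon induction in vector cells (NCOR1, -0.28, edgeR adjusted p 0.0472) and 1 upon induction in JUN cells (TBL1XR1, -0.36, edgeR adjusted p 0.0443). The JUN effect on TBL1XR1 without induction was 0.58 with the block (edgeR adjusted p 0.00228), against 0.61 without it (edgeR adjusted p 0.0179).

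With a GC trend, members called were 1 upon induction in vector cells (3966 of 14775 genes) and 0 with the JUN vector without induction (2567 genes, 25 list genes). They were 2 upon induction in JUN cells (4055 genes) and 1 with the JUN vector under induction (3793 genes). With the replicate block and the GC trend they were 0 (3213 genes), 0 (1421 genes, 14 list genes), 2 (3341 genes) and 0 (2445 genes, 21 list genes). Without JUN Dox replicates 1 and 3 together, chosen after seeing the data, members called were 1 upon induction in vector cells and 0 with the JUN vector under induction (2434 genes, 20 list genes), while induction in JUN cells gave 1150 genes and 15 list genes and the interaction 68 and 1. The lone JUN Dox library was then assumed to vary like the other groups.

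Values that turned sign were those of members not called in the comparison. Upon induction in vector cells the GC trend gave TBL1X 0.027, TBL1XR1 -0.16 and GPS2 0.28, with -0.031 and 0.23 for TBL1XR1 and GPS2 when the block was added, and left-out libraries gave HDAC3 -0.00486 to 0.22 and TBL1X -0.27 to 0.16. With the JUN vector without induction the GC trend gave GPS2 0.18, the GC trend with the block gave HDAC3 0.12, GPS2 0.13, SIN3A -0.079 and CTBP2 -0.066, and left-out libraries gave HDAC3 -0.094 to 0.037 and SIN3A -0.041 to 0.11. Upon induction in JUN cells TBL1X was 0.000727 with the GC trend and 0.00166 without JUN Dox replicates 1 and 3, and left-out libraries gave TBL1X -0.092 to 0.047 and GPS2 -0.000717 to 0.29. With the JUN vector under induction GPS2 was 0.00657 with a minimum of 5 CPM, TBL1XR1 -0.0069 with the block, and the GC trend gave TBL1XR1 -0.38 and GPS2 0.25. There the GC trend with the block gave HDAC3 0.085, TBL1XR1 -0.26, GPS2 0.21 and CTBP2 -0.035, and left-out libraries gave HDAC3 -0.14 to 0.088, TBL1XR1 -0.12 to 0.20, GPS2 -0.17 to 0.13 and CTBP2 -0.00661 to 0.13. In the interaction HDAC3 was -0.001495 with DESeq2, -0.00193 with RLE factors, -0.00268 with the GC trend and -0.038 with the GC trend and block, and left-out libraries gave -0.088 to 0.14. TBL1X was 0.013 with upper-quartile factors, 0.00153 without a filter, 0.074 with the GC trend and block, 0.039 without JUN Dox replicates 1 and 3, and -0.19 to 0.24 with left-out libraries. CTBP2 was 0.017, 0.00397, 0.00541, 0.031 and 0.070 with upper-quartile factors, no filter, the GC trend, the GC trend and block, and without JUN Dox replicates 1 and 3, and -0.070 to 0.063 with left-out libraries.

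Upper-quartile factors lowered the share of higher calls upon induction in vector cells from 52.0% to 43.4%. TBL1X, at 61 to 168 counts per library, had the least precise estimates.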
